A study of Mus musculus with 6 samples.

Results

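The genes described here are 9 members of the S100, annexin and cytoskeletal group that accompanies changes of state in B cells: S100a4, S100a6, S100a10, S100a11, Anxa2, Anxa6, Lgals1, Vim and Ahnak. They were chosen by name, and each matched 1 of the 23850 gene entries of every library table. Messenger RNA had been sequenced from B cells brought to a germinal centre state in culture, all from C57BL/6J mice of wild type genotype. There were 3 libraries after CHIR99021 (3 uM) and 3 after DMSO, the solvent, beside which the labels print the same figure. CHIR99021 blocks GSK3, a kinase that marks beta-catenin and other proteins for breakdown. In both groups, naive follicular B cells had been kept for 4 days with IL-4 (1 ng/ml) on feeder cells carrying CD40L. They then received CHIR99021 or DMSO for 36 h on such feeders with IL-21 (10 ng/ml). The sources used here do not say how the B cells were purified from the feeders, which cells the feeders are, or the age of the mice.

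S100 proteins are small calcium-binding proteins that work as dimers, and annexins are proteins that bind membrane phospholipids when calcium rises. S100A10 joins ANXA2 in a complex at the inner face of the plasma membrane, and AHNAK, a giant scaffold protein, docks onto that complex. Vimentin is the intermediate filament of lymphocytes and of mesenchymal cells, and galectin-1, the product of Lgals1, is a lectin that binds beta-galactosides. Messenger RNAs of this group are commonly higher in memory B cells and plasma cells than in germinal centre B cells. Most of them are also abundant in fibroblasts, the cell type most often used as a CD40L feeder.

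The 4 S100 members lie on mouse chromosome 3 as a pair of close neighbours each. On mm10, S100a4 (90603770 to 90606045) and S100a6 (90612894 to 90614414) are 6848 bases apart. S100a11 (93520496 to 93526288) and S100a10 (93555117 to 93564645) are 28828 bases apart, and 2906081 bases separate S100a6 from S100a11. Anxa2 lies on chromosome 9 (69453683 to 69491785), Anxa6 on chromosome 11 (54978962 to 55033471), Lgals1 on chromosome 15 (78926725 to 78930465), Vim on chromosome 2 (13574311 to 13582826) and Ahnak on chromosome 19 (8989284 to 9076919). In the deposited tables no member overlapped another gene entry apart from Anxa2, whose span holds a microRNA gene listed at 0.

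Promoter sequences from RefSeq (GRCm38.p6, the same assembly as mm10; 250 bases before and 50 after the gene start) matched 6 of the 9 members: S100a4, S100a6, S100a11, Anxa2, Vim and Ahnak. Sequence upstream of S100a4, S100a11 and Anxa2 is shown because the members moved together and these hold the motifs found, and 30 bases around TATAAA are shown for Vim and Anxa2. All are on the plus strand, in the direction of the gene, and capitals mark TATAAA (the TATA box) and TGANTCA (the AP-1 motif).
S100a4, chr3:90603520-90603769: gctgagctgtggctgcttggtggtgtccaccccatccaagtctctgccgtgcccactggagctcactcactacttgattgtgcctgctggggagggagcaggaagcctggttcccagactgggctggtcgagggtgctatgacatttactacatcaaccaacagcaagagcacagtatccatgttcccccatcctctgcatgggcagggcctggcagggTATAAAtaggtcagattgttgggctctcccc
S100a11, chr3:93520246-93520487: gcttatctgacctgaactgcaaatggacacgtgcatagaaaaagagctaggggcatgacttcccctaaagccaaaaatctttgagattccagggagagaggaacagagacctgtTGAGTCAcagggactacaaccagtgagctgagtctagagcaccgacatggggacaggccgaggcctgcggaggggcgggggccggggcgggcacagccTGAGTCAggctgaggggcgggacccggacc
Anxa2, chr9:69453433-69453619: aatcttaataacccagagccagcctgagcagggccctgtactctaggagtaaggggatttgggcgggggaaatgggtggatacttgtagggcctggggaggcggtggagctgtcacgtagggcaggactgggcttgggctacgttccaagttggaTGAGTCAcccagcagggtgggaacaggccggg
Anxa2, chr9:69453654-69453683: ggatggggcgggTATAAAagccccacccag
Vim, chr2:13574267-13574296: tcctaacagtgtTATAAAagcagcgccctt

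Searched on both strands of the 300-base windows, TATAAA occurred in 3 of the 6 member promoters (Vim, S100a4 and Anxa2), against 13.6% of 32851 RefSeq promoters. With its first base 40 to 20 bases before the start on the gene's own strand, TATAAA occurred in Vim and S100a4, against 1.99% of all promoters, and began at -32 in Vim and -31 in S100a4. TGANTCA, which reads the same on the opposite strand, occurred in S100a11, at -136 and -38, and in Anxa2, at -95, against 7.81% of all promoters. TCF/LEF factors are the partners of beta-catenin, which GSK3 inhibition is known to stabilise. Their motif was searched on both strands as CTTTGAA together with the variant CTTTGAT and, with the sixth letter changed, as CTTTGTA together with the variant CTTTGTT. It occurred in 0 of the 6 windows and in 16.9% of all promoters. These matches describe the letters of the windows and do not show binding.

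Levels below are FPKM, fragments scaled for transcript length and library total, and a mean is given with its SD over 3 libraries (n = 3 per group). A log2 change is CHIR99021 minus DMSO on the log2(FPKM + 1) scale, with its standard error (SE). A gene passed the test at an adjusted p under 0.05 in limma over the 10096 genes whose mean reached 1 FPKM, and all 9 members were among them. CHIR99021 and DMSO libraries with the same replicate number in their titles deviated from their group means together. Results are therefore given unpaired and, where the call of a gene or a count differs, with the replicate number as a block. Summed FPKM ran from 556644 to 616427 in CHIR99021 libraries and from 527290 to 617449 in DMSO libraries. B cell genes were abundant in both groups and lower with CHIR99021: the list of 12 summed to 3718 to 4304 FPKM in CHIR99021 libraries and to 6476 to 8648 FPKM in DMSO libraries. Of its 11 tested genes 10 fell and 0 rose in both fits (9 fell unpaired with either scaling), with a median log2 change of -1.07, and their part in the results below was not tested. The share of all tested genes that fell was 13.3% unpaired, 24.4% with the block and 11.6% unpaired with either scaling. The B cell receptor gene Cd79a had 575 FPKM on average with CHIR99021, against 1216 FPKM with DMSO. The macrophage marker Cd14 and the T cell marker Cd3e were listed at 0 in all 6 libraries.

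All 9 members were lower with CHIR99021 in every replicate number, and in the blocked fit all 9 fell, Ahnak only narrowly. The folds of mean FPKM ran from 1.46-fold lower for Anxa2 and Lgals1 to 3.01-fold lower for Vim. Without the block only Vim and Anxa6 passed the test, and the groups of the other 7 overlapped. In bulk RNA, fewer cells of a type and less RNA per cell cannot be told apart. Thus 2 of 9 members fell unpaired, where 13.3% of all tested genes did, and 9 of 9 fell with the block, where 24.4% of all tested genes did (42.8% changed in either direction). Calls over all genes were 62.1% lower as deposited, 51.3% lower with upper-quartile and 48.8% lower with quantile scaling. By limma, 0 of 9 members rose in either fit (8.13% of all genes unpaired and 18.4% with the block), and 0 were higher at an unadjusted p under 0.05. Being lower in all 3 numbers held for 37.3% of tested genes. The median log2 change of the members was -0.76, against -0.04 for all tested genes.

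**Figure D1:**
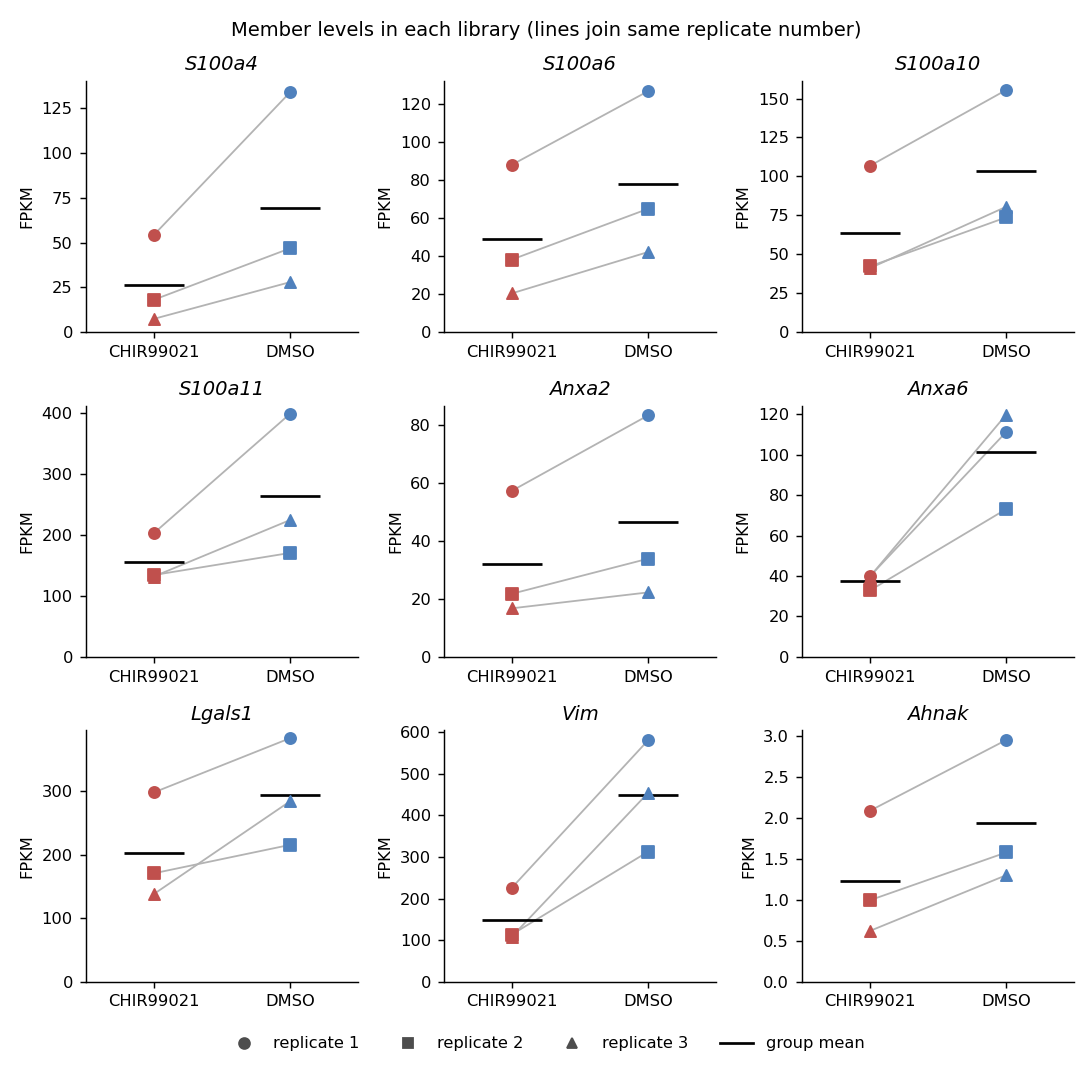
FPKM of the 9 members in each library, CHIR99021 left and DMSO right; symbols give the replicate number, grey lines join libraries of the same number and black bars are group means. All lines run downward towards CHIR99021, the groups are apart for Vim and Anxa6, and replicate 1 is the highest library of its group for 8 members.

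Vim, which encodes vimentin, had the largest change of the 9. It had 226, 113 and 108 FPKM in CHIR99021 replicates 1, 2 and 3, against 581, 313 and 455 FPKM in DMSO replicates 1, 2 and 3. Every CHIR99021 library lay below every DMSO library, which held for 2 of 9 members and for 23.1% of tested genes in this direction. Vim averaged 149 ± 66.5 FPKM with CHIR99021 and 449.5 ± 134 FPKM with DMSO (SD, n = 3 each), a log2 change of -1.63 ± 0.32 (SE, adjusted p = 0.0105 by limma). Within replicate numbers 1, 2 and 3 it was 2.57, 2.76 and 4.21-fold lower. Only 0.555% of tested genes had a log2 change as low as or lower than that of Vim. It passed without each library in turn (adjusted p = 0.00385 to 0.0480). Vim was the most abundant member in DMSO libraries and the third in CHIR99021 libraries.

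Anxa6 encodes annexin A6, a large annexin with a doubled core that links membranes to actin. It had 39.9, 32.9 and 39.8 FPKM in CHIR99021 replicates 1, 2 and 3, against 111, 73.2 and 119.9 FPKM in DMSO replicates 1, 2 and 3. The groups did not overlap, and the CHIR99021 libraries lay close together. It averaged 37.5 ± 4.01 FPKM with CHIR99021 and 101 ± 24.9 FPKM with DMSO (SD, n = 3 each), 2.70-fold lower, with a log2 change of -1.39 ± 0.18 (SE, adjusted p = 0.00233 by limma). It passed without each library in turn (adjusted p = 0.000866 to 0.0129). It was also the only member whose highest library was not replicate 1 in both groups, since DMSO replicate 3 was highest there.

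Anxa2 encodes annexin A2, the partner of S100A10. It had 57.3, 21.8 and 16.8 FPKM in CHIR99021 replicates 1, 2 and 3, against 83.4, 33.9 and 22.3 FPKM in DMSO replicates 1, 2 and 3. The groups overlapped widely, and CHIR99021 replicate 1 was above DMSO replicates 2 and 3. Unpaired, the log2 change of -0.51 ± 0.55 (SE) did not pass (adjusted p = 0.562 by limma), while with the block its SE was 0.07 and its adjusted p 0.00159. Without DMSO replicate 1 the unpaired log2 change was 0.0097 (adjusted p = 0.993), so the unpaired direction rested on that library. That fit kept CHIR99021 replicate 1, the highest library of its group. With both libraries of replicate number 1 left out, the blocked log2 change was -0.50 (adjusted p = 0.0126 by limma). The 3 differences within replicate numbers were alike, at -0.53, -0.62 and -0.39 on the log2 scale.

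Among the S100 genes, S100a4, which encodes a protein that binds non-muscle myosin, had the largest change. It had 54.2, 18.1 and 7.42 FPKM in CHIR99021 replicates 1, 2 and 3, against 134, 46.8 and 27.9 FPKM in DMSO replicates 1, 2 and 3. Replicate 1 was the highest and replicate 3 the lowest library in both groups, and CHIR99021 replicate 1 exceeded DMSO replicates 2 and 3. S100a4 averaged 26.6 ± 24.5 FPKM with CHIR99021 and 69.6 ± 56.5 FPKM with DMSO (SD, n = 3 each). The log2 change of -1.47 had an SE of 0.74 unpaired (adjusted p = 0.198 by limma) and of 0.10 with the block (adjusted p = 0.000175). It was 2.47, 2.59 and 3.77-fold lower within replicate numbers 1, 2 and 3.

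S100a6, which encodes calcyclin and neighbours S100a4, had 87.9, 38.1 and 20.4 FPKM in CHIR99021 replicates 1, 2 and 3, against 127, 64.8 and 42.1 FPKM in DMSO replicates 1, 2 and 3. It showed the order of S100a4 over the replicate numbers with a smaller change, at -0.76 on the log2 scale (adjusted p = 0.365 by limma unpaired, 0.00120 with the block). S100a10, whose protein has lost calcium binding and is held in its active form, had 107, 42.3 and 41.1 FPKM in CHIR99021 replicates 1, 2 and 3, against 156, 73.7 and 80.6 FPKM in DMSO replicates 1, 2 and 3. Here replicate 1 alone stood high in each group. Its log2 change was also -0.76 (adjusted p = 0.225 by limma unpaired, 0.000756 with the block), and without CHIR99021 replicate 1 it passed unpaired (-1.21, adjusted p = 0.0361). That was the only 1 of 6 unpaired fits with a library left out in which S100a10 passed.

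S100a11, the most abundant S100 member, had 202, 134 and 131 FPKM in CHIR99021 replicates 1, 2 and 3, against 398, 170.2 and 224 FPKM in DMSO replicates 1, 2 and 3. CHIR99021 replicate 1 lay between the DMSO values, and the other two CHIR99021 libraries lay below all of them. The log2 change was -0.69 ± 0.30 (SE, adjusted p = 0.146 by limma unpaired), with an adjusted p of 0.00344 in the blocked fit.

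Lgals1 had 298, 170.4 and 138 FPKM in CHIR99021 replicates 1, 2 and 3, against 383, 215 and 284 FPKM in DMSO replicates 1, 2 and 3. CHIR99021 replicate 1 was above DMSO replicates 2 and 3, so the groups overlapped. The log2 change was -0.58 ± 0.30 (SE, adjusted p = 0.212 by limma unpaired, 0.0141 with the block), or -0.90 without CHIR99021 replicate 1 (adjusted p = 0.0428 unpaired). That was the only 1 of 6 unpaired fits with a library left out in which Lgals1 passed. Ahnak was the member of lowest level, with 2.08, 0.992 and 0.618 FPKM in CHIR99021 replicates 1, 2 and 3, against 2.95, 1.57 and 1.30 FPKM in DMSO replicates 1, 2 and 3. At these levels the pseudocount damps the change, and the log2 change was -0.41 ± 0.30 (SE, adjusted p = 0.372 by limma unpaired, 0.0353 with the block). The blocked call of Ahnak was lost with quantile normalization (adjusted p = 0.0697) and without replicate number 1 (0.104), 2 (0.0820) or 3 (0.135). The mean of Ahnak was 1.58-fold lower, close to the 1.59-fold and 1.63-fold of S100a6 and S100a10.

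**Figure D2:**
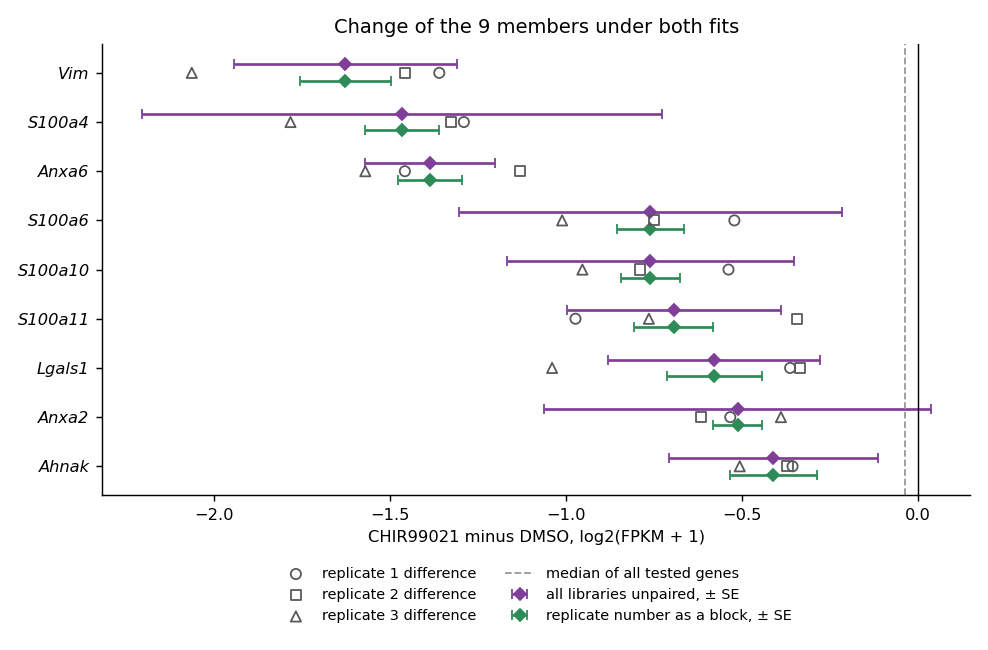
Log2 change of each member, CHIR99021 minus DMSO, on the log2(FPKM + 1) scale; filled diamonds with bars are the estimate ± SE unpaired (purple) and with the replicate number as a block (green), and open symbols are the difference within each replicate number. All 27 within-number differences lie below 0, and the SE is wide only in the unpaired fit, as for S100a4 with 0.74 against 0.10.

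Set side by side per transcript length, the order of mean FPKM in CHIR99021 libraries was Lgals1 (202), S100a11 (156), Vim (149), S100a10 (63.4), S100a6 (48.8), Anxa6 (37.5), Anxa2 (32), S100a4 (26.6) and Ahnak (1.23). In DMSO libraries it was Vim (449.5), Lgals1 (294), S100a11 (264), S100a10 (103), Anxa6 (101), S100a6 (77.8), S100a4 (69.6), Anxa2 (46.5) and Ahnak (1.94). Neighbours in these orders had ranges over the libraries that met, except below the third gene and above Ahnak in both groups. Vim, S100a4 and Anxa6 thus formed the strongly lower members, from 2.62 to 3.01-fold, and the remaining 6 lay between 1.46 and 1.69-fold lower. The confidence limits that Cufflinks gives each FPKM, which cover the uncertainty within a library only, did not meet between the 2 libraries of a replicate number in 25 of 27 comparisons, and the exceptions were 2 of the 3 for Ahnak.

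Fibroblast genes were measurable in all 6 libraries, and their level followed the replicate number. The summed FPKM of 8 defining fibroblast genes (Col1a1, Col1a2, Col3a1, Sparc, Fn1, Fstl1, Pdgfrb and Postn) was 269, 104 and 56.8 in CHIR99021 replicates 1, 2 and 3, against 345, 119 and 64.7 in DMSO replicates 1, 2 and 3. The type I collagen gene Col1a1 alone had 165, 65.3 and 33.3 FPKM in CHIR99021 replicates 1, 2 and 3, against 202, 69.2 and 36.2 FPKM in DMSO replicates 1, 2 and 3. Pdgfrb and Postn were at 0 in 3 and 5 of the 6 libraries and reached no more than 0.107 and 0.0506 FPKM. Cd40lg, the ligand the feeders are labelled as carrying, had 1.88, 0.357 and 0.138 FPKM in CHIR99021 replicates 1, 2 and 3, against 2.37, 0.550 and 0.382 FPKM in DMSO replicates 1, 2 and 3. Replicate 1 was therefore richest and replicate 3 poorest in feeder-type RNA under both treatments. Over the whole list of 38 fibroblast markers, the summed FPKM ran from 109 to 434 in CHIR99021 libraries and from 124 to 589 in DMSO libraries. Of its 26 tested genes 24 were highest in replicate 1 in both groups. By limma 0 of the 26 changed unpaired, also at an unadjusted p under 0.05, and with the block 11 fell and 0 rose. Of all tested genes, 13.3% fell and 8.13% rose unpaired, and 24.4% fell and 18.4% rose with the block. The median log2 change of the 26 fibroblast genes was -0.33 in both fits. It was 0.13 in the unpaired fit without DMSO replicate 1 (23 genes tested). In the blocked fit without replicate number 1 of both groups it was -0.24, and 7 of 17 tested fibroblast genes fell, where 19.1% of all tested genes did.

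The members followed this order to different degrees. The level in replicate 1 over that in replicate 3 was 4.73 with CHIR99021 and 5.34 with DMSO for the fibroblast sum. For S100a4 it was 7.31 with CHIR99021 and 4.79 with DMSO, for S100a6 4.31 with CHIR99021 and 3.01 with DMSO, and for Anxa2 3.42 with CHIR99021 and 3.74 with DMSO. It was 2.16 with CHIR99021 and 1.35 with DMSO for Lgals1, 2.09 with CHIR99021 and 1.28 with DMSO for Vim, and 1.00 with CHIR99021 and 0.928 with DMSO for Anxa6. For Ahnak it was 3.37 with CHIR99021 and 2.27 with DMSO, for S100a10 2.60 with CHIR99021 and 1.93 with DMSO, and for S100a11 1.54 with CHIR99021 and 1.78 with DMSO. The ratio of S100a4 was above that of the fibroblast sum with CHIR99021 and below it with DMSO, and the other members had lower ratios than the sum in both groups. For the fibroblast sum, of which Col1a1 is the largest part, CHIR99021 libraries had 0.778, 0.870 and 0.879 of the DMSO level in replicate numbers 1, 2 and 3. For Cd40lg these shares were 0.794, 0.649 and 0.361, and for Sparc 0.806, 0.962 and 0.968. The fibroblast genes were not alike, with log2 changes from -1.36 to 0.23 over the 26 tested. Among lower ones, the mean with CHIR99021 was 0.532 of that with DMSO for Col3a1 and 0.527 for Col5a2. The shares within replicate numbers were 0.405, 0.386 and 0.265 for S100a4, 0.389, 0.362 and 0.238 for Vim and 0.359, 0.45 and 0.331 for Anxa6. For Anxa2 they were 0.687, 0.643 and 0.753 and for Lgals1 0.777, 0.792 and 0.485.

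Per 100 FPKM of the fibroblast sum, S100a4 had 20.2, 17.5 and 13.1 FPKM in CHIR99021 replicates 1, 2 and 3, against 38.8, 39.4 and 43.2 FPKM in DMSO replicates 1, 2 and 3. On this scale the groups of S100a4 were apart and those of the other 8 members overlapped, Vim and Anxa6 included. Within each replicate number, every member was still lower with CHIR99021 on this scale. For Vim the values were 84.1 against 168, 110 against 263 and 190 against 703 in numbers 1, 2 and 3. For Lgals1 in number 1 they were nearly equal, at 110.82 with CHIR99021 and 110.96 with DMSO. Anxa2 had 21.3, 21.1 and 29.5 FPKM per 100 in CHIR99021 libraries and 24.2, 28.5 and 34.4 in DMSO libraries, and S100a6 ran from 32.7 to 36.8 in CHIR99021 libraries and from 36.7 to 65.1 in DMSO libraries. Vim ran from 84.1 to 190.2 in CHIR99021 libraries and from 168 to 703 in DMSO libraries. Anxa6 ran from 14.9 to 69.9 in CHIR99021 libraries and from 32.3 to 186 in DMSO libraries, a wider spread than as deposited. The part of feeder RNA in the changes of the 9 members was not tested.

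**Figure D3:**
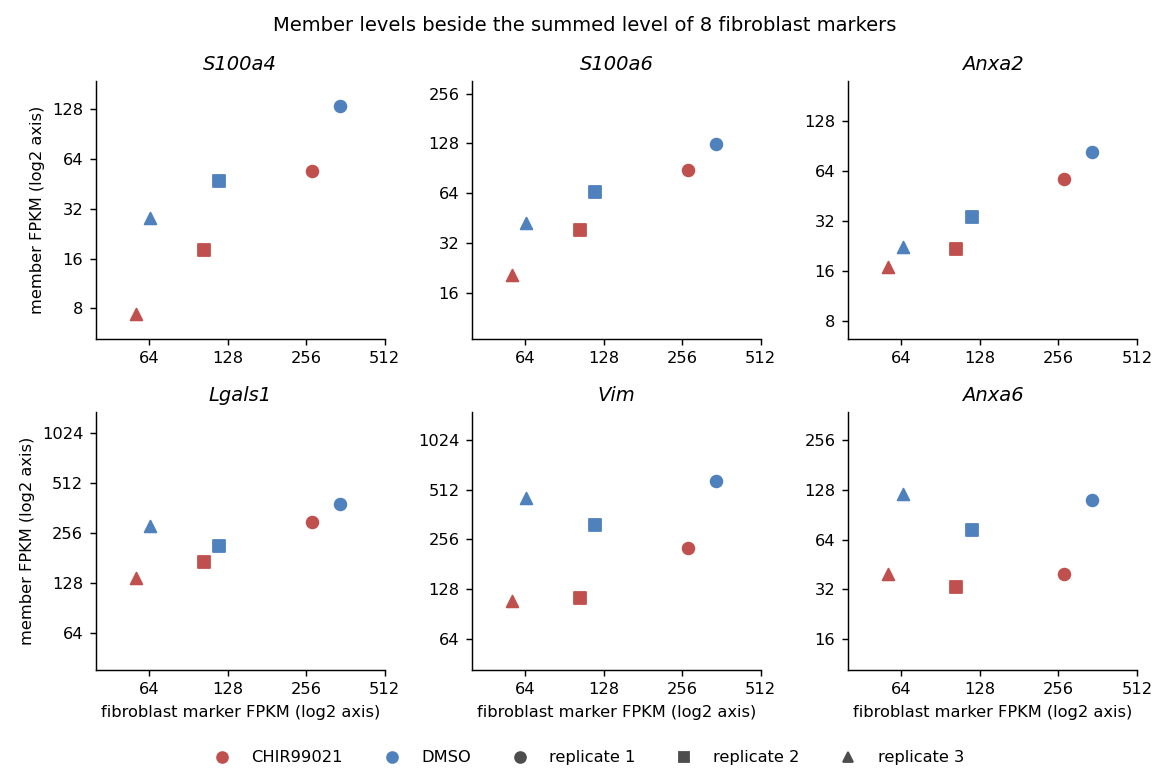
FPKM of 6 members (vertical, log2 axis) against the summed FPKM of 8 defining fibroblast genes (horizontal, log2 axis) in each library; red is CHIR99021, blue is DMSO and symbols give the replicate number. The S100a4 points are higher where the fibroblast sum is higher within each treatment, whereas the Anxa6 points lie at 32.9 to 39.9 FPKM with CHIR99021 and 73.2 to 119.9 FPKM with DMSO across all fibroblast sums.

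Marker genes of macrophages and other myeloid cells, which also use S100 and annexin genes, were low. The 16 markers summed to 17.6 to 24.2 FPKM in CHIR99021 libraries and to 31.0 to 38.3 FPKM in DMSO libraries. Cd14 and Fcgr1 were listed at 0 throughout, Csf1r did not exceed 0.0957 FPKM, and the neutrophil gene S100a8 had 1.68, 2.08 and 0 FPKM in CHIR99021 libraries and 0 in DMSO libraries. Of 5 tested markers 2 fell, Itgam (adjusted p = 0.00264 by limma) and Cd68 (0.0483), where 13.3% of all tested genes fell unpaired. Cd68 passed in 1 of 6 fits with a library left out. T cell markers summed to 12.7 to 14.9 FPKM with CHIR99021 and to 14.3 to 19.8 FPKM with DMSO, most of it from Lck, and 0 of 1 tested changed (limma, also at an unadjusted p under 0.05).

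In the wider families, some further genes fell. Of all tested genes 13.3% fell unpaired and 24.4% with the block. Of 17 S100 genes 7 were tested, and unpaired 1 of the 7 fell, S100a13, which is no member (14.9 ± 1.81 FPKM with CHIR99021 and 30.3 ± 8.10 FPKM with DMSO, SD, n = 3 each, adjusted p = 0.0149 by limma, or 0.0569 without DMSO replicate 3). With the block 5 of the 7 fell. S100a1 (1.10 and 2.61 FPKM with CHIR99021 and DMSO) and S100a16 (2.88 FPKM with CHIR99021 and 3.42 FPKM with DMSO) did not pass in either fit. Of 12 annexin genes 9 were tested, and 2 fell unpaired and 5 with the block. Beside Anxa6, Anxa7 passed narrowly (20.3 ± 1.75 FPKM with CHIR99021 and 25.3 ± 0.324 FPKM with DMSO, adjusted p = 0.0480 by limma), but not with upper-quartile scaling (0.0960) and in 1 of 6 fits with a library left out. Anxa8 had 7.35, 2.35 and 0.886 FPKM in CHIR99021 replicates 1, 2 and 3, against 24, 6.96 and 4.58 FPKM in DMSO replicates 1, 2 and 3, the replicate order of S100a4, and fell with the block (adjusted p = 0.155 by limma unpaired, 0.000175 blocked). Anxa1, which encodes a glucocorticoid-induced annexin, had 7.95 and 14.1 FPKM with CHIR99021 and DMSO (adjusted p = 0.478 unpaired, 0.00256 blocked). Mean FPKM with CHIR99021 against DMSO was 17.6 against 16.7 for Anxa5, 7.17 against 7.40 for Anxa4, 3.21 against 4.01 for Anxa3 and 18.9 against 21.5 for Anxa11, and these 4 passed in neither fit. Of the 7 further annexins 1 fell unpaired, near the share of all tested genes, and 3 fell with the block. They had a median log2 change of -0.17, and 5 or 6 of them were below 0 depending on the scaling.

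Of 4 tested galectin genes besides Lgals1, 0 changed unpaired (limma, also at an unadjusted p under 0.05), and with the block Lgals3 and Lgals8 fell (adjusted p = 0.0230 and 0.0269), though 0 of 4 passed in the blocked fit with either scaling. Lgals3, whose product galectin-3 is abundant in macrophages and fibroblasts, had 14.2 and 17.2 FPKM with CHIR99021 and DMSO. Lgals9 had 46.1 FPKM with CHIR99021 and 57.5 FPKM with DMSO, Lgals8 4.53 with CHIR99021 and 6.17 with DMSO, and Lgals4 0.911 with CHIR99021 and 1.33 with DMSO. Of 5 tested genes for intermediate filaments and their linkers besides Vim, the nuclear lamina gene Lmnb1 fell unpaired (77.0 ± 1.97 FPKM with CHIR99021 and 94.8 ± 5.06 FPKM with DMSO, SD, n = 3 each, adjusted p = 0.0307 by limma). It did not pass in any of the 6 fits with a library left out (0.0544 to 0.108), nor with upper-quartile scaling (0.0572). With the block 4 of the 5 fell, where 24.4% of all tested genes did, adding the lamin gene Lmna (adjusted p = 0.0216) and the linker genes Plec (0.00150) and Macf1 (0.00690).

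Of a list drawn up for AHNAK partners and membrane repair, 5 genes besides Ahnak were tested. Of these, 3 fell and 0 rose unpaired (0 higher also at an unadjusted p under 0.05), where 13.3% of all tested genes fell. With the block 4 fell, where 24.4% of all tested genes did, and the median log2 change was -0.54. The calpain gene Capn1, a calcium-dependent protease, had 14 ± 1.71 FPKM with CHIR99021 and 25.6 ± 2.16 FPKM with DMSO (SD, n = 3 each, adjusted p = 0.00274 by limma). Its small subunit gene Capns1 (129 FPKM with CHIR99021 and 187 FPKM with DMSO, adjusted p = 0.0277) and Plp2 (101 FPKM with CHIR99021 and 163 FPKM with DMSO, adjusted p = 0.0174) also fell. Plp2 is neither a calpain nor a dysferlin gene. The unpaired count that fell was 1 of 5 without CHIR99021 replicate 2, CHIR99021 replicate 3 or DMSO replicate 3. The fusion protein gene Dysf was listed at 0 or under 0.05 FPKM, and Myof had 2.86 and 2.86 FPKM with CHIR99021 and DMSO.

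Genes of the actin cytoskeleton, to which these proteins attach, were lower as well. Of 28 genes of actin and actin dynamics, 21 fell and 0 rose unpaired, where 13.3% of all tested genes fell, and 27 fell with the block, where 24.4% did. Their median log2 change was -0.55, and 0 were higher at an unadjusted p under 0.05. The calponin genes Cnn2 (104 ± 6.92 FPKM with CHIR99021 and 233 ± 23.6 FPKM with DMSO) and Cnn3 (24.8 ± 1.72 FPKM with CHIR99021 and 56.1 ± 8.82 FPKM with DMSO) were 2.24 and 2.26-fold lower. The filament-capping gene Capg had 93.2 ± 13.7 FPKM with CHIR99021 and 266 ± 51.9 FPKM with DMSO (2.85-fold lower), and the bundling gene Lcp1 215 ± 9.61 FPKM with CHIR99021 and 330.1 ± 16.7 FPKM with DMSO (SD, n = 3 each). These 4 had adjusted p-values of 0.000547 to 0.00233 by limma.

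Of 17 tested linkers between cortical actin and the membrane, 12 fell and 1 rose unpaired, where 13.3% of all tested genes fell. With the block 14 fell and 1 rose, where 24.4% of all tested genes fell, and the median log2 change was -0.60. The filamin gene Flna had 32.3 ± 2.55 FPKM with CHIR99021 and 77.7 ± 8.16 FPKM with DMSO (2.41-fold lower, adjusted p = 0.000519 by limma). The moesin gene Msn had 124 ± 6.36 FPKM with CHIR99021 and 215 ± 21.7 FPKM with DMSO, and the adducin genes Add1 (26.1 FPKM with CHIR99021 and 46.6 FPKM with DMSO) and Add3 (12.6 FPKM with CHIR99021 and 23.8 FPKM with DMSO) fell as well. The gene that rose was Rdx, which encodes radixin, a relative of moesin (40.7 ± 2.62 FPKM with CHIR99021 and 30 ± 2.50 FPKM with DMSO, adjusted p = 0.0166 by limma, or 0.0775 without CHIR99021 replicate 3). Rdx was named after its value was seen.

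Microtubule genes were called in both directions in the blocked fit. Of 11 tubulin genes and the tubulin-binding gene Stmn1, 3 fell and 0 rose unpaired (3 higher at an unadjusted p under 0.05), and 3 fell and 4 rose with the block, with a median log2 change of 0.07. Of all tested genes, 13.3% fell and 8.13% rose unpaired, and 24.4% fell and 18.4% rose with the block. The number of microtubule genes that fell with the block was thus near the share of all tested genes. With either scaling 3 of the 12 fell and 2 rose unpaired. Those that fell were Stmn1 (149 ± 11.9 FPKM with CHIR99021 and 265 ± 58.8 FPKM with DMSO), Tuba1a (69.3 FPKM with CHIR99021 and 115 FPKM with DMSO) and Tubb3, at a low level (0.418 FPKM with CHIR99021 and 2.0 FPKM with DMSO). With the block, Tubb6 (adjusted p = 0.00316 by limma), Tubb5 (0.0138), Tubb2a (0.0220) and Tubg1 (0.0263) rose. The unpaired count that fell was 1 of 12 without CHIR99021 replicate 2 or CHIR99021 replicate 3, and 1 of 11 tested without DMSO replicate 3.

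Genes often reported beside the members in memory and plasma lineage B cells were tested for 13 of 14. Of these 9 fell and 1 rose, with a median log2 change of -1.10 and the same counts under the block and both scalings. Of all tested genes 13.3% fell unpaired, 24.4% with the block and 11.6% with either scaling. The count that fell was 8 without CHIR99021 replicate 1, 2 or 3 or without DMSO replicate 3. The LIM domain gene Crip1 had 35.7 ± 11.8 FPKM with CHIR99021 and 179.8 ± 58.2 FPKM with DMSO (SD, n = 3 each), Cd52 946 FPKM with CHIR99021 and 2304 FPKM with DMSO, and Emp3 75.9 FPKM with CHIR99021 and 192 FPKM with DMSO. The exception was Plac8, which rose (45.1 ± 13.2 FPKM with CHIR99021 and 5.52 ± 2.95 FPKM with DMSO, adjusted p = 0.00140 by limma). Of the plasma cell list, 5 of 9 tested genes rose and 0 fell unpaired (1 was lower at an unadjusted p under 0.05). Of all tested genes 8.13% rose unpaired and 18.4% with the block. In the blocked fit 6 of the 9 rose and 1 fell, the J chain gene Igj (adjusted p = 0.00134 by limma). Among those that rose were Irf4 (82.1 and 30.5 FPKM with CHIR99021 and DMSO) and Prdm1 (16.2 FPKM with CHIR99021 and 6.27 FPKM with DMSO). Sdc1 passed in neither fit (adjusted p = 0.510 by limma unpaired, 0.118 with the block). The median log2 change was 1.07, but the list summed to 527 to 657 FPKM in CHIR99021 libraries and to 511 to 797 FPKM in DMSO libraries.

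**Figure D4:**
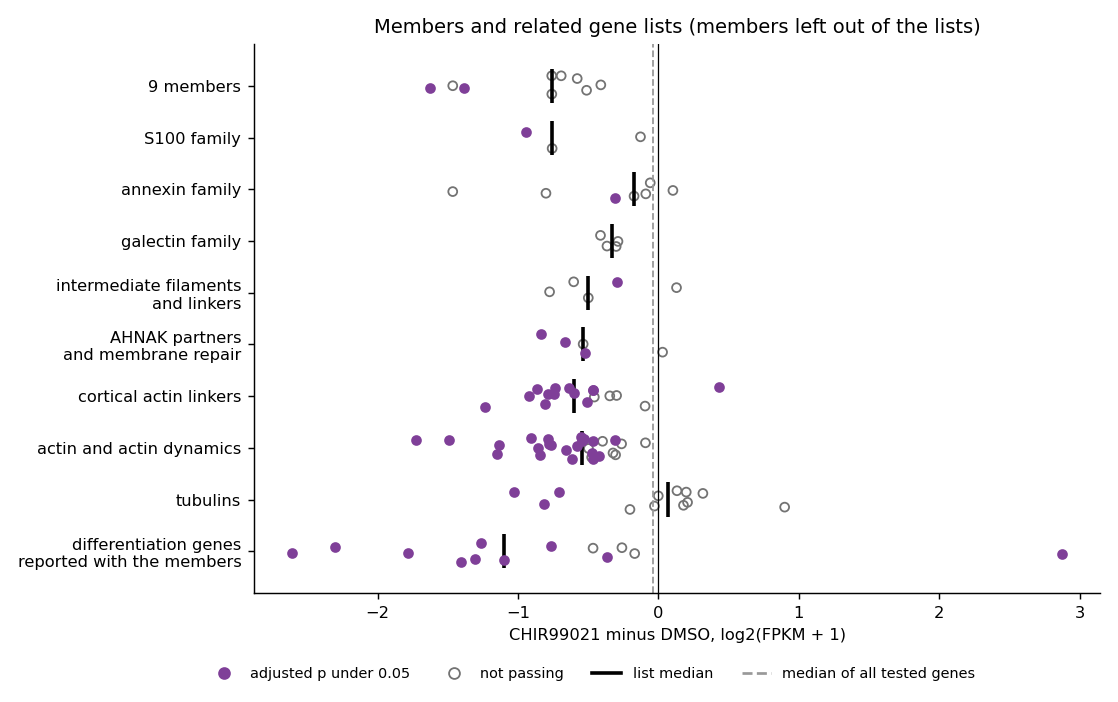
Log2 change, CHIR99021 minus DMSO, of every tested gene of the members and of each related list with the members left out; purple points passed the unpaired test at an adjusted p under 0.05, open points did not, and black bars are list medians. The actin lists lie to the left with medians of -0.55 and -0.60, the tubulins around 0.07 and the further annexins at -0.17, against -0.04 for all tested genes.

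Each gene's log2 values were standardised over the 6 libraries and compared with the mean profile of the 9 members by the root mean square difference, in standard deviations. The members themselves, which enter that mean, ranged from 0.167 for S100a10 to 0.414 for Anxa2 and 0.696 for Anxa6. The 5 most similar other named genes were Ehd2 (0.102), Klf10 (0.113), Yeats4 (0.113), Foxp1 (0.117) and Prg3 (0.128). Ehd2, which encodes a membrane-bending ATPase of caveolae, had 11, 4.95 and 3.96 FPKM in CHIR99021 replicates 1, 2 and 3, against 18.4, 7.87 and 9.78 FPKM in DMSO replicates 1, 2 and 3. All 5 were highest in replicate 1 in both groups, and 0 of the 5 passed the unpaired test by limma (adjusted p = 0.146 to 0.392). With the block Ehd2 (adjusted p = 0.00238), Klf10 (0.00407), Foxp1 (0.0406) and Prg3 (0.00754) fell. The 5 genes were picked for likeness to the member profile, which is highest in replicate 1 of each group. Their replicate order and test outcomes follow from that choice and are no independent result. The standardised profile keeps no size, and Yeats4 differed by only -0.11 on the log2 scale.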

How the data were processed

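The purified cells gave RNA by RNeasy, sequenced after TruSeq Stranded mRNA preparation, per the labels' protocols. Cufflinks 2.2.1, TopHat2 2.1.1 and cutadapt 1.12 are named with mouse build mm10, per the submitters' processing notes. The sources used here do not state the annotation, the strand setting or the handling of multiply matching reads. Each library's deposited table holds the authors' gene FPKM with confidence limits, per the file headers. FPKM are not counts, so the number of fragments is unknown and precision was read from those limits, whose median half-width was 12.5% to 15.4% of the FPKM. The series describes biological triplicates.

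Tables were joined on gene, locus and start site ID with Python 3.11.15 (pandas 2.3.3, numpy 2.4.6). Values were transformed to log2(FPKM + 1), and genes whose mean reached 1 FPKM were fitted, CHIR99021 minus DMSO, using limma 3.58.1 (R 4.3.3) (eBayes with trend, two-sided, Benjamini-Hochberg over all genes). Only the unpaired fit was run on simulated data, with libraries drawn independently, so that run does not cover the replicate block. Replicate numbers from the titles were taken to pair libraries, since deviations from the group means correlated across genes at 0.490 to 0.535 between CHIR99021 and DMSO libraries of the same number and at -0.352 to -0.140 between different numbers. FPKM ratios are without the pseudocount. Starts were converted to count from 1. Of the related lists, up to 4 genes with the smallest adjusted p were named (Crip1 and Emp3 tied), with all tested S100, annexin and galectin genes. Dysf, Myof, Irf4, Prdm1, Itgam, Cd68, Lck, Fcgr1, Cd40lg, Cd79a and Rdx were named outside this rule. So were Igj, Sdc1, Col5a2, Lmna, Plec, Macf1, Tubb2a, Tubb5, Tubb6 and Tubg1. The members and lists were chosen with earlier results of these data known. Alternatives were other pseudocounts, filters, scalings, the replicate block, no trend and leaving out each library. Figures were drawn with matplotlib 3.10.9. Ahnak2 had no entry in the tables, and Adgre1 and Jchain were read as Emr1 and Igj. Some results that the naming rule would include are not reported here.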

Additional observations from a re-analysis of the deposited data

How the results depend on the processing

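The count of 2 members lower held with pseudocounts of 0.1 and 5, without a filter on level, with a filter at a mean of 5 FPKM (8 members tested, Ahnak left out), with upper-quartile and quantile scaling and without the variance trend, and 0 members were higher in any fit. It was 9 with the replicate block. With the block it was also 9 with upper-quartile scaling or a pseudocount of 0.1, 8 with quantile normalization and 8 without both libraries of replicate number 1, 2 or 3, fits added after seeing the data. Ahnak was the member that missed the threshold in these 4 fits (adjusted p = 0.0697 to 0.135 by limma), and the cause was not tested. Leaving out 1 library gave 2 to 4 members lower, with 4 only without CHIR99021 replicate 1. The unpaired log2 change of Anxa2 ran from -1.02 to 0.0097 with 1 library left out, turning its sign without DMSO replicate 1, and the cause was not tested. In the blocked fit without both libraries of replicate number 1 the Anxa2 change was -0.50. All genes called were lower in 62.1% as deposited, 51.3% with upper-quartile and 48.8% with quantile scaling; the 9 members were negative in all 3. With the block 4321 of all tested genes were called, against 2164 without it. The number of fragments is unknown, so depth limits could be read only from the deposited confidence limits, which met between groups in 2 of 3 replicate numbers for Ahnak.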
